A study of Mus musculus with 15 samples.

Results

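The RNA of 9 genes that mark the steps by which a new neuron is made was measured in the hippocampus of old mice. The genes were Sox2, Nes and Hopx for stem cells, Mki67 for dividing cells, and Neurod1, Sox11, Igfbpl1, Dcx and Calb2 for neuroblasts and immature neurons. They were chosen by name, as textbook markers, out of the 55401 genes counted, with earlier results of these data known. All 9 passed the filter on low counts that left 19536 genes for testing.

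The animals were female mice of 18 to 20 months in 4 groups, with 4 WT and 4 Tg2576 animals on vehicle, and 4 WT and 3 Tg2576 animals on docosahexaenoic acid (DHA). Tg2576 mice carry human APP with the Swedish mutation under the prion promoter, which is active in many neurons, and develop amyloid plaques with age. WT mice were littermates without the transgene. DHA, an omega-3 fatty acid of brain membranes, was dosed at 450 mg/kg by stomach tube in sesame oil each day for 5 weeks, and the vehicle groups received the oil alone. The total count ranged from 17372864 to 46596489 reads per mouse, with a median of 25645977. Levels are given as CPM, that is counts relative to the size of the library, after scaling of the libraries by the TMM method of edgeR.

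In the dentate gyrus of the hippocampus, radial glia-like stem cells divide into intermediate progenitors, which give rise to neuroblasts that mature into granule neurons. Sox2 is a transcription factor that keeps stem cells undifferentiated, Nes encodes the intermediate filament nestin, and Hopx is a small homeodomain protein found in quiescent stem cells. Mki67 encodes the Ki-67 protein of dividing cells. Neurod1 and Sox11 are transcription factors of neuroblasts, Igfbpl1 is a secreted protein of early neuroblasts, Dcx encodes the microtubule protein doublecortin of migrating neurons, and Calb2 encodes the calcium-binding protein calretinin, which new granule neurons carry for a short time. Most of these genes are not restricted to the lineage. Sox2 and Hopx are also expressed in astrocytes, Nes in vessel cells, Mki67 in any dividing cell, Neurod1 in mature granule neurons, and Calb2 in interneurons and mossy cells. The process is known to decline steeply with age in mice.

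Promoter sequence is shown for the 3 genes on which the comparisons turn, Sox11, Neurod1 and Mki67. The sequences are those of RefSeq on GRCm38.p6, the build of the count files, and read 5′ to 3′ on the minus strand, on which all 3 genes lie. They were taken from the 250 bases upstream of the RefSeq start, and for Neurod1 only the 135 of these bases outside the counted gene model are printed. Capitals mark 2 motifs, CATATG (an E-box of the kind bound by neuronal bHLH factors, which reads the same on both strands) and CCAAT, which reads ATTGG where it lies on the other strand. The Sox11 sequence is chr12:27342719-27342968, the Neurod1 sequence chr2:79456752-79456886 and the Mki67 sequence chr7:135716380-135716629.
Sox11: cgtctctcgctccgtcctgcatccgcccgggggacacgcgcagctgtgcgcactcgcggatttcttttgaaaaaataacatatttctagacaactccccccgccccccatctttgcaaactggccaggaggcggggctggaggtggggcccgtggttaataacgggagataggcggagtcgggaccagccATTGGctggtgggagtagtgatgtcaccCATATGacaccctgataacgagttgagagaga
Neurod1: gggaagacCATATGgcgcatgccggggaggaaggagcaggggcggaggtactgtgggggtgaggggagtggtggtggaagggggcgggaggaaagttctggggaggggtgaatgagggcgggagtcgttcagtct
Mki67: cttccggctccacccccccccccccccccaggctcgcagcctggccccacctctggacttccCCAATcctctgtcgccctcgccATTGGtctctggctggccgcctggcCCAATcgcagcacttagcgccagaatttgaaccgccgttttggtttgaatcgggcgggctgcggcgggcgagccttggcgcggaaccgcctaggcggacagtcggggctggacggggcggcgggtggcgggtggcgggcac

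Sox11 and Neurod1 each held 1 CATATG, which began 32 bases upstream of the start in Sox11 and 242 bases upstream in Neurod1. Of all 32851 promoters searched over 250 upstream bases, 3.46% held this motif. CCAAT occurred 3 times in Mki67, once in Sox11, Sox2 and both Hopx starts, and once in 1 of the 2 Dcx starts, against at least 1 match in 33.8% of all promoters. CANNTG, the general E-box, which includes CATATG, was found in 66.2% of all promoters and, among the 7 genes with an entry, in Neurod1, Sox11 and 1 of the 2 Hopx starts. AGGTCA, which nuclear receptors bind, lay in 4607 of all promoters and in Sox2 alone among these genes. CAGATG, also an E-box, lay in 14.4% of all promoters and in no entry of these genes. GGGCGG lay in 32.7% and in Sox11, Neurod1, Mki67, Sox2 and Nes. TATAAA lay in 12.4% and in both Dcx starts. These were the 7 motifs searched. A match describes letters in the window and not a site in use. GC content was 58.0% in the Sox11 sequence, 65.2% in Neurod1 and 71.6% in Mki67.

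Reads of all 9 genes were found in every mouse, at levels that differed widely per length. Mean CPM per kb of exon over the 15 mice was 24.0 for Hopx, 17.6 for Calb2 and 16.3 for Sox2, which placed these 3 genes at percentiles 89.2, 85.4 and 84.1 of the tested genes. Neurod1 stood at 4.66 CPM per kb, above the median of 3.04 over all tested genes. The other 5 genes lay under that median, with Nes at 1.79, Sox11 at 1.73, Dcx at 1.28, Igfbpl1 at 0.384 and Mki67 at 0.251 CPM per kb. Mki67 was at percentile 10.1, on 30 to 147 reads per mouse, and Igfbpl1 at percentile 15.5, on 6 to 131 reads.

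The neighbours in this order were not all apart. Over the 15 mice Hopx ranged from 14.97 to 35.9 CPM per kb, Calb2 from 10.2 to 24.6 and Sox2 from 13.6 to 19.5, so that these 3 overlapped. Neurod1, from 3.38 to 6.67, overlapped with none of the other 8 genes. Nes (1.22 to 2.50), Sox11 (1.18 to 2.37) and Dcx (0.904 to 1.70) overlapped with each other. Igfbpl1 ran from 0.0751 to 1.36 and covered the whole range of Mki67, from 0.169 to 0.341. Its highest mouse, WT vehicle replicate 3, also reached into the ranges of Dcx, Sox11 and Nes.

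**Figure D1:**
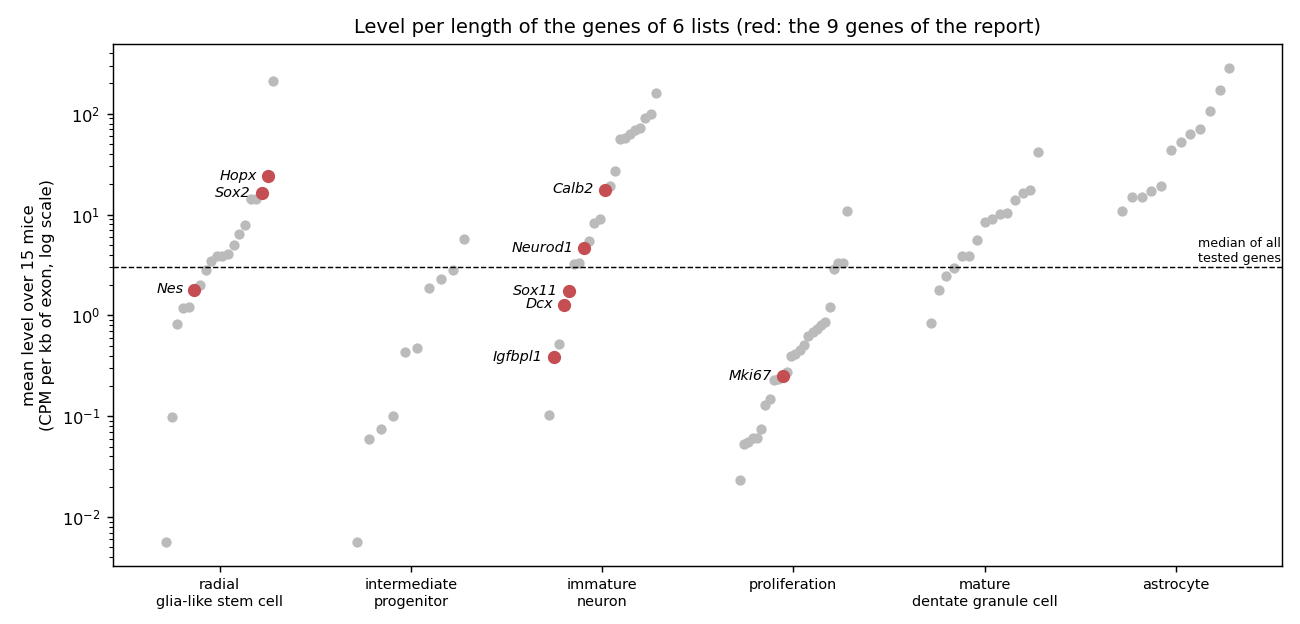
Mean level over 15 mice, in CPM per kb of exon on a log axis, of every gene in 6 marker lists, with 1 point per gene, the 9 genes in red and a dashed line at the median of all tested genes (3.04). Hopx, Sox2, Calb2 and Neurod1 lie above the line, and Nes, Sox11, Dcx, Igfbpl1 and Mki67 below it.

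The other genes of the lineage also spread widely in level. Among 20 genes of radial glia-like stem cells, the highest was Gfap, an astrocyte filament, at 209 CPM per kb, followed by Hopx. Tfap2c, a transcription factor of stem and progenitor cells, had at most 2 reads in any mouse and was not tested. Eomes (Tbr2), the defining factor of intermediate progenitors, was at 0.101 CPM per kb with 0 to 37 reads per mouse. Of 22 genes of the immature neuron list, the highest were Tubb3 at 160 and Gap43 at 100.5 CPM per kb, which mature neurons express as well. In the proliferation list of 26 genes, Pcna, also used in DNA repair, was highest at 10.9 CPM per kb, while Cdk1 (2 to 18 reads per mouse) and Top2a (0 to 40 reads) were near the limit of what these libraries can show.

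The genes also differed in how much they varied between mice. Sox2 had a coefficient of variation of 9.03% over the 15 mice, lower than all but 13.5% of the tested genes, and its highest mouse was 1.43-fold above its lowest. Neurod1, Sox11, Dcx and Nes varied by 17.5% to 19.96%, near the median of 17.9% over all tested genes. Mki67, Calb2 and Hopx reached 22.7%, 23.4% and 27.98%. Igfbpl1 varied by 83.5%, at percentile 98.1, and its highest mouse was 18.2-fold above its lowest.

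Position and annotation bear on how cleanly each gene could be counted. Sox11 (ENSMUSG00000063632.6, chr12:27334264-27342574), Dcx (ENSMUSG00000031285.14, chrX:143855842-143933311), Igfbpl1 (ENSMUSG00000035551.6, chr4:45809468-45826923) and Calb2 (ENSMUSG00000003657.9, chr8:110137502-110168210) lie on the minus strand and overlap no other gene. Nes (ENSMUSG00000004891.16, chr3:87971078-87980451), on the plus strand, also overlaps none. Sox2 (ENSMUSG00000074637.7, chr3:34650405-34652461, plus strand) lies inside the noncoding gene Sox2ot, and Mki67 (ENSMUSG00000031004.8, chr7:135689784-135716361, minus strand) overlaps Gm45240, in each case with no exon base shared. Hopx (ENSMUSG00000059325.14, chr5:77086988-77115121, minus strand) shares 412 exon bases, 27.2% of its exons, with the antisense gene Hopxos, and Neurod1 (ENSMUSG00000034701.9, chr2:79452521-79456751, minus strand) shares 201 exon bases, 7.37%, with Cerkl. The counts were made without a strand setting, and reads that fell on exon bases of both genes were assigned to neither, so the levels per length of Hopx and Neurod1 leave out these reads.

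**Figure D2:**
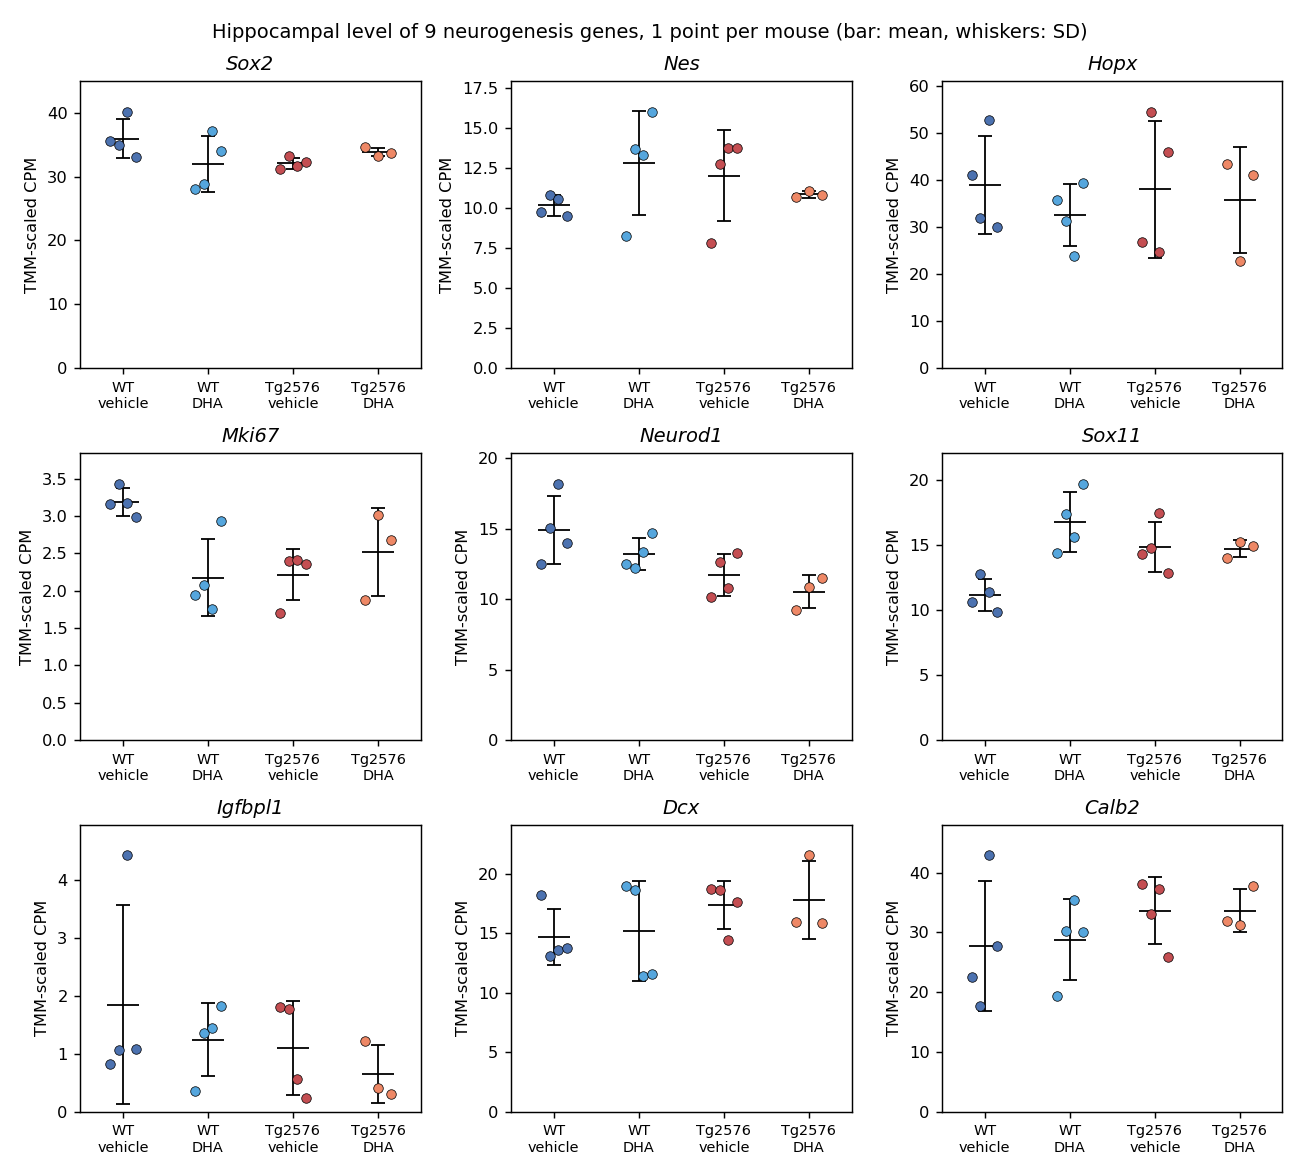
TMM-scaled CPM of the 9 genes in each mouse, by group, on linear axes from 0 (points: mice, horizontal bar: group mean, whiskers: SD, n = 4, 4, 4 and 3). The WT vehicle mice lie below every other mouse for Sox11, at 9.84 to 12.77 CPM, and for Mki67, at 2.98 to 3.43 CPM, a single mouse of the other groups (3.01 CPM) reaches them.

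The first question was whether DHA changed these genes in WT mice. Sox11 rose 1.51-fold, and none of the other 8 genes passed the threshold. Sox11 levels were 10.6, 12.8, 11.4 and 9.84 CPM in the 4 WT vehicle mice and 14.35, 17.4, 15.6 and 19.7 CPM in the 4 WT DHA mice. Every DHA mouse was above every vehicle mouse, on 264 to 535 reads per mouse. The mean went from 11.2 ± 1.25 to 16.8 ± 2.33 CPM (SD, n = 4 each), a log2 fold change of 0.59 (SE 0.13, 95% interval 0.32 to 0.86). The edgeR quasi-likelihood test gave p = 0.000219, with a Benjamini-Hochberg adjusted p = 0.355, and the two-sided exact permutation test gave p = 0.0286, the smallest that 4 mice against 4 allow. The threshold was p below 0.01, the cut-off of the study, applied here to the edgeR p without adjustment, and in this comparison 1.38% of all tested genes passed it, 0.783% upwards. No gene passed an adjusted p of 0.05 in edgeR (0 genes), while 1157 had a p below 0.05 before adjustment. The groups did not overlap for 5.02% of all tested genes. Sox11 passed the threshold in each of the 15 fits that left out 1 mouse, with log2 fold changes of 0.50 to 0.67. Its adjusted p depended on the method. Over 6 other settings with all mice, DESeq2 and limma-voom among them, it ran from 0.0104 to 0.388.

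Mki67 had the opposite order in the same mice, without passing the threshold. Its levels were 3.17, 3.43, 3.18 and 2.98 CPM in WT vehicle mice and 1.94, 2.08, 1.76 and 2.93 CPM in WT DHA mice, so that the groups just failed to overlap. The log2 fold change was -0.55 (SE 0.22, 95% interval -1.01 to -0.09, edgeR p = 0.0220, adjusted p = 0.791, exact permutation p = 0.0286). Counts behind these values were small, at 71 to 147 reads in the vehicle mice and 34 to 64 in the DHA mice.

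For the remaining 7 genes the WT groups overlapped. Nes was at 9.78, 10.8, 10.6 and 9.48 CPM with vehicle and at 8.28, 13.7, 13.3 and 16.0 CPM with DHA, with 3 of 4 DHA mice above all vehicle mice and the other below them. Its log2 fold change was 0.34 (95% interval -0.05 to 0.73, edgeR adjusted p = 0.863), and without WT DHA replicate 1, the low mouse, it was 0.51 and past the threshold. Sox2 gave a log2 fold change of -0.17 (95% interval -0.37 to 0.03) and Neurod1 one of -0.18 (-0.46 to 0.11). Hopx gave -0.26 (-0.86 to 0.35) and Calb2 0.05 (-0.44 to 0.54).

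Dcx, the most used marker of new neurons, had nearly equal means in the 2 WT groups. Its levels were 18.2, 13.1, 13.6 and 13.8 CPM with vehicle and 18.9, 18.6, 11.4 and 11.6 CPM with DHA, the latter in 2 pairs on either side of the vehicle mean of 14.7 CPM. The log2 fold change was 0.05 with a 95% interval of -0.33 to 0.42, so a change beyond 1.34-fold upwards lay outside the interval. Igfbpl1 was at 0.818, 1.06, 4.43 and 1.08 CPM with vehicle and 0.352, 1.36, 1.45 and 1.82 CPM with DHA, and its interval of -1.99 to 0.85 on the log2 scale was too wide to show a change of the sizes seen in the other genes.

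In Tg2576 mice none of the 9 genes passed the threshold with DHA, by edgeR, DESeq2 or limma-voom, and 0 had an edgeR p below 0.05. Of all tested genes 0.353% passed the threshold and 3.16% had a p below 0.05. Sox11 was at 14.3, 14.7, 17.5 and 12.85 CPM in the vehicle mice and at 13.96, 15.2 and 14.9 CPM in the DHA mice, which lay inside the vehicle range. Means were 14.8 ± 1.94 (SD, n = 4) and 14.7 ± 0.65 CPM (SD, n = 3), with a log2 fold change of -0.01 (SE 0.14, 95% interval -0.30 to 0.27). Both Tg2576 groups thus stood between the WT vehicle and WT DHA means. Dcx again had close means, 17.4 ± 2.01 and 17.8 ± 3.25 CPM, with an interval of -0.37 to 0.44 for the log2 fold change.

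Sox2 was the only 1 of the 9 genes whose Tg2576 groups did not overlap under the 2 treatments, as did 3.21% of all tested genes. Its levels were 31.2, 33.2, 31.7 and 32.3 CPM with vehicle and 34.5, 33.3 and 33.7 CPM with DHA, a difference in means of 1.05-fold on the fitted scale. The exact permutation test gave p = 0.0571, the smallest that 4 mice against 3 allow, and edgeR gave p = 0.467 (adjusted p = 0.999). Mki67 was at 1.70, 2.39, 2.41 and 2.36 CPM with vehicle and 1.87, 3.01 and 2.67 CPM with DHA, with a log2 fold change of 0.18 (-0.31 to 0.68). For Nes, Hopx, Neurod1 and Calb2 the 95% intervals all held 0 and reached at most 0.75 on the log2 scale in either direction, and that of Igfbpl1 ran from -2.39 to 0.89.

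The DHA effect on Sox11 differed between the genotypes at the threshold without adjustment. The interaction, the log2 fold change in Tg2576 mice less that in WT mice, was -0.61 (SE 0.19, 95% interval -1.0 to -0.21, edgeR adjusted p = 0.845), and it passed the threshold. It was the single gene of the 9 to do so, against 0.829% of all tested genes, 0.384% downwards. No gene had an edgeR adjusted p below 0.05 (0 genes), and 1001 had a p below 0.05 before adjustment. Without WT vehicle replicate 1, WT vehicle replicate 4, WT DHA replicate 4, Tg2576 vehicle replicate 3 or Tg2576 DHA replicate 1, the value ranged from -0.52 to -0.58 and was past the threshold in none of these 5 fits. Mki67 had an interaction of 0.73 (95% interval 0.06 to 1.41, edgeR adjusted p = 0.845), not past the threshold and opposite in sign to that of Sox11.

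Averaged over both genotypes, Sox11 was 1.22-fold higher with DHA (log2 fold change 0.29, SE 0.09, edgeR p = 0.00635, adjusted p = 0.9998, exact permutation p = 0.0269 within genotypes). Of all tested genes 0.87% passed the threshold, 0.532% upwards. The call was lost in 9 of the 15 fits without 1 mouse (WT vehicle 1 or 4, WT DHA 2 or 4, Tg2576 vehicle 1, 2 or 4, Tg2576 DHA 2 or 3), where the log2 fold change was 0.25 to 0.29. The average joins 0.59 in WT mice and -0.01 in Tg2576 mice. The other 8 genes ranged from -0.66 for Igfbpl1 to 0.09 for Nes on the log2 scale, and none had p under 0.05, as 3.78% of all tested genes did. The Igfbpl1 value was -0.21 without WT vehicle replicate 3, its highest mouse, and -1.06 without Tg2576 DHA replicate 1.

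**Figure D3:**
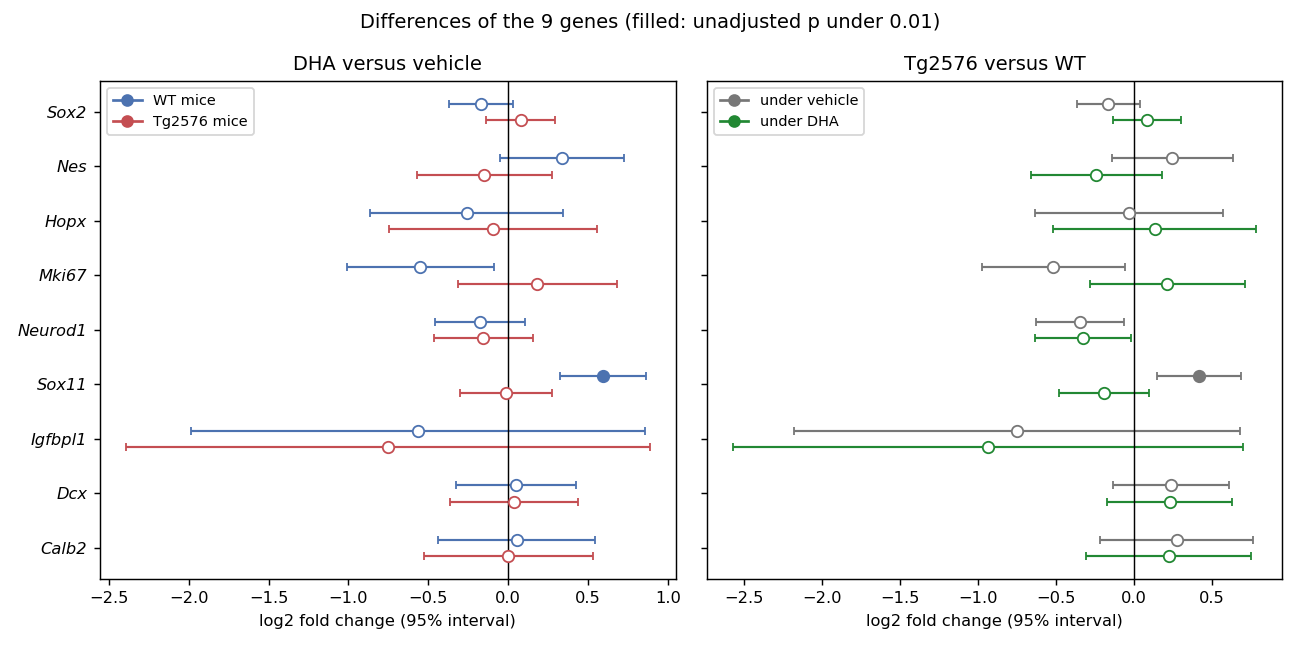
Log2 fold changes of the 9 genes with 95% intervals, for DHA against vehicle in each genotype (left) and for Tg2576 against WT mice under each treatment (right); filled circles mark an unadjusted edgeR p under 0.01. Sox11 is filled for DHA in WT mice (0.59) and for Tg2576 mice under vehicle (0.42), and the intervals of Igfbpl1 are the widest.

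The genotype comparison asked how the lineage genes stood in Tg2576 mice. Under vehicle, Sox11 was 1.33-fold higher in Tg2576 than in WT mice, with means of 14.8 ± 1.94 and 11.2 ± 1.25 CPM (SD, n = 4 each) and no overlap between the groups. The log2 fold change was 0.42 (SE 0.13, 95% interval 0.15 to 0.68, edgeR p = 0.00445, adjusted p = 0.266, exact permutation p = 0.0286). It was the only gene of the 9 past the threshold, which 3.09% of all tested genes passed, 1.16% upwards and 0.0154% (3 genes) at an adjusted p below 0.05. Groups without overlap were seen for 5.16%. Without WT vehicle replicate 1, WT vehicle replicate 4 or Tg2576 vehicle replicate 3, the log2 fold change was 0.39, 0.36 or 0.33 and no longer past the threshold. This comparison and that of DHA in WT mice share the 4 WT vehicle mice, in which Sox11 was lowest, and are not independent of each other.

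Mki67 was again highest in the WT vehicle mice. Tg2576 vehicle mice, at 1.70 to 2.41 CPM, lay below all WT vehicle mice, at 2.98 to 3.43 CPM, with a log2 fold change of -0.52 (SE 0.22, 95% interval -0.98 to -0.06, edgeR p = 0.0293, adjusted p = 0.399, exact permutation p = 0.0286). Under DHA it was 0.21 (-0.28 to 0.71). The same 4 WT vehicle mice enter here and in the DHA comparison of Mki67.

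Neurod1 was lower in Tg2576 mice when averaged over both treatments. WT mice had 12.5, 15.04, 18.2 and 13.99 CPM with vehicle and 12.5, 12.2, 13.3 and 14.7 CPM with DHA. Tg2576 mice had 10.2, 12.6, 10.8 and 13.25 CPM with vehicle and 9.21, 10.8 and 11.5 CPM with DHA. The groups overlapped under vehicle and did not under DHA, where 8.56% of all tested genes had no overlap. The log2 fold change was -0.35 (SE 0.13, edgeR adjusted p = 0.370) under vehicle and -0.33 (SE 0.15, adjusted p = 0.705) under DHA, neither past the threshold. The exact permutation test gave p = 0.0857 and p = 0.0571, the latter the smallest possible. Averaged over treatments it was -0.34 (SE 0.10, 95% interval -0.55 to -0.13, edgeR p = 0.00352, adjusted p = 0.179), and the exact permutation test within treatments gave p = 0.00245. Neurod1 was the only gene of the 9 past the threshold in this average, which 3.85% of all tested genes passed, 1.91% downwards and 0.205% (40 genes) at an adjusted p below 0.05. The call was lost without Tg2576 DHA replicate 1, the mouse with the lowest level, with a log2 fold change of -0.29.

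Under DHA none of the 9 genes passed the threshold between genotypes, by edgeR, DESeq2 or limma-voom, and 1, Neurod1, had an edgeR p below 0.05. Of all tested genes 6.86% had a p below 0.05, 1.75% passed the threshold, and 0.00512% (1 gene) at an adjusted p below 0.05. Sox11 had a log2 fold change of -0.19 (95% interval -0.48 to 0.10) there. Averaged over treatments, the ratio of Tg2576 to WT mice was 1.18 for Dcx (log2 fold change 0.23, -0.04 to 0.51, exact permutation p = 0.112) and 1.19 for Calb2 (0.25, -0.11 to 0.61, exact permutation p = 0.132), neither past the threshold. Without WT vehicle replicate 3, the mouse with the highest Calb2 level at 42.9 CPM, the Calb2 average was 0.39 and past the threshold. Sox2, Nes and Hopx gave -0.04, 0.00 and 0.05, and Igfbpl1 -0.84 with an interval of -1.93 to 0.24. Without WT vehicle replicate 3 the Igfbpl1 value was -0.39.

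**Figure D4:**
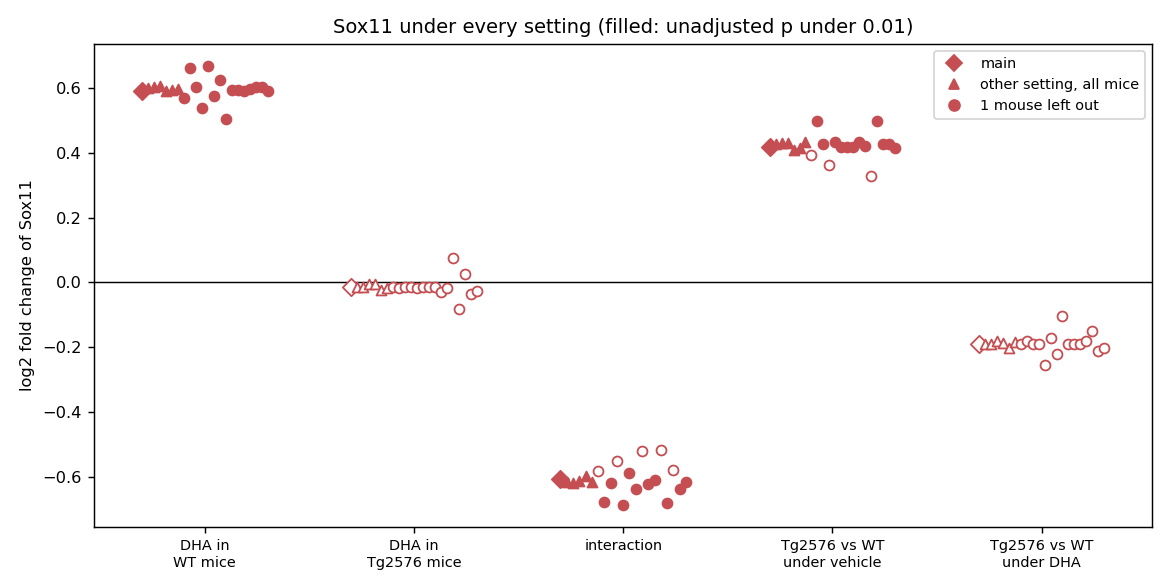
Log2 fold change of Sox11 in 5 comparisons as reported (diamonds), under other settings with all mice (triangles) and without each mouse in turn (circles); filled symbols have an unadjusted p under 0.01. DHA in WT mice is filled throughout, at 0.50 to 0.67, and the values for DHA in Tg2576 mice lie on both sides of 0.

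Other genes of the lineage were taken from lists of markers, and few of them passed the threshold with DHA. In WT mice 2 of 22 immature neuron genes rose, beside 0.783% of all tested genes. They were Sox11 and Gap43, a growth-cone protein, and none fell, with a median log2 fold change of 0.05 for the list against -0.01 for all tested genes. Gap43 went from 129.1 ± 32.9 to 180.4 ± 19.6 CPM (log2 fold change 0.48, SE 0.15, edgeR adjusted p = 0.608). Of the 19 tested stem cell genes, 8 tested progenitor genes and 24 tested proliferation genes, none passed in WT mice, beside 1.38% of all tested genes. Their medians were -0.14, -0.10 and -0.10. In Tg2576 mice none of these 4 lists had a gene past the threshold, which only 0.353% of all tested genes passed.

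Signals of the neurogenic niche moved in both directions. Of 30 tested genes, 3 passed in WT mice given DHA, beside 1.38% of all tested genes. Here the Wnt ligands Wnt7b (log2 fold change 0.39, SE 0.10, edgeR adjusted p = 0.464) and Wnt7a (0.37, SE 0.12, adjusted p = 0.647) rose. Jag1, a Notch ligand, fell by 0.57 on the log2 scale (SE 0.16, adjusted p = 0.540). In Tg2576 mice given DHA, where 0.353% of all tested genes passed, 1 gene of the list did, Vegfa, the vascular growth factor, which rose by 0.58 (SE 0.16, adjusted p = 0.999). All these genes passed the threshold on the p before adjustment. Short of it, Wnt7b and Wnt7a rose by 0.30 and 0.21 in Tg2576 mice, and Vegfa by 0.34 in WT mice. Jag1 stood at 0.02 in Tg2576 mice. Averaged over both genotypes, Wnt7b (0.35), Vegfa (0.46) and Wnt7a (0.29) passed, beside 0.87% of all tested genes. Their edgeR adjusted p were 0.467, 0.735 and 0.9998. For the interaction, 0 genes of the list passed, beside 0.829% of all tested genes. The median of the list was -0.06 in WT and 0.13 in Tg2576 mice.

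By genotype, the stem cell genes past the threshold under vehicle were Gfap and Vim, which reactive astrocytes also express. They were 2 of 19, beside 3.09% of all tested genes, with a list median of -0.03. Gfap was higher in Tg2576 mice under vehicle (log2 fold change 1.02, SE 0.18, edgeR adjusted p = 0.0766), and so was Vim, another filament gene (0.80, SE 0.21, adjusted p = 0.204). Both also passed the threshold under DHA, and averaged over treatments they had adjusted p of 0.00457 and 0.0486. Sox2, Nes and Hopx, which are on the same list, did not pass in any comparison. Emx2, a transcription factor of cortical progenitors, was lower in Tg2576 mice over both treatments (-0.29, adjusted p = 0.238), a call kept in 6 of the 15 fits without 1 mouse.

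Beside Neurod1, Bhlhe22, a neuronal bHLH factor, was lower in Tg2576 mice under vehicle (-0.44, SE 0.13, edgeR adjusted p = 0.237) and over both treatments (-0.30, adjusted p = 0.225). The second of these calls was kept in 7 of the 15 fits without 1 mouse. Dll1, a Notch ligand of progenitors, was also lower over both treatments (-0.40, SE 0.09, adjusted p = 0.0892). Of the 24 tested proliferation genes none passed under either treatment, beside 3.09% of all tested genes under vehicle and 1.75% under DHA. Over both, 1 was lower, Mcm6 of the replication helicase (-0.31, adjusted p = 0.257), where 1.91% of all tested genes passed downwards. The Mcm6 call was kept in 2 of 5 other settings with all mice and in 4 of the 15 fits without 1 mouse.

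Of the 30 niche genes 2 were higher and 3 lower in Tg2576 mice under vehicle, where 3.09% of all tested genes passed, and the median of the list was -0.09. Id1 and Id3, which oppose bHLH factors, were higher in Tg2576 mice under vehicle by 0.48 and 0.55 on the log2 scale (adjusted p = 0.287 and adjusted p = 0.204). The lower genes were Jag1 (-0.48), Ptch1, the receptor of hedgehog ligands (-0.42), and Bdnf, a neurotrophin (-0.46), with edgeR adjusted p of 0.304 to 0.312.

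Markers of other hippocampal cells moved with some of these results. Of 15 mature dentate granule cell genes, Prox1 and Maml2 fell with DHA in WT mice and none rose, beside 1.38% of all tested genes past the threshold. The median was -0.28 for the list, with 12 log2 fold changes below 0 and 3 above. C1ql2 and Calb1, at 41.9 and 17.4 CPM per kb, were among the 3, at 0.14 and 0.03. Under vehicle Prox1, Maml2, Trpc6 and Rfx3 were lower in Tg2576 mice, with a median of -0.27, where 3.09% of all tested genes passed. Of the list 13 genes lay below 0 there and 2 above, C1ql2 at 0.01 and Calb1 at 0.08. Under DHA 1 gene, Lct, was lower in Tg2576 mice, beside 1.75% of all tested genes, and the median was 0.02. Over both treatments 4 genes were lower, Lct, Prox1 and Dsp among them, beside 3.85%. Without 1 mouse, the Dsp and Prox1 calls over both treatments were kept in 5 and 6 of the 15 fits. The summed level of the list was 736.7 to 932.9 CPM in WT vehicle, 673.9 to 828.6 in WT DHA, 695.9 to 754.7 in Tg2576 vehicle and 622.7 to 704.7 in Tg2576 DHA mice. Prox1, the factor that fixes granule cell fate, had means of 88.0, 68.3, 64.1 and 64.0 CPM in the same order of groups, and Mki67 means of 3.19, 2.17, 2.21 and 2.52 CPM. Neurod1 and the list had the same order of group means, from WT vehicle down to Tg2576 DHA. The part of the dentate share of each sample in the values of Neurod1, Sox11 and Mki67 was not tested, and in a tissue sample fewer cells of a type and less RNA per cell cannot be told apart.

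Other lists moved as follows. Microglial genes were higher in Tg2576 mice, 3 of 12 under vehicle and 8 of 12 under DHA, beside 3.09% and 1.75% of all tested genes past the threshold. Their sums were 336.9 to 517.6 and 395.4 to 542.9 CPM, against 350.0 to 394.1 and 294.8 to 356.7 CPM in WT mice. For Mki67, which dividing microglia also express, their part was not tested. Choroid plexus genes, from tissue beside the hippocampus, summed to 96.6 to 3777 CPM in WT vehicle, 65.2 to 5925 in WT DHA, 145.9 to 3245 in Tg2576 vehicle and 3185 to 5227 in Tg2576 DHA mice, and none of the 10 passed the threshold in any comparison. The 6 ventricular zone neuroblast genes summed to 51.2 to 89.4 CPM in all mice with none past the threshold, and the 12 astrocyte genes to 4629 to 6147 CPM with none past it but Acsbg1, which was lower in Tg2576 mice under DHA and over both treatments.

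Calretinin, the product of Calb2, is also found in interneurons and mossy cells, whose part in the Calb2 level was not tested. Of 12 interneuron genes, Gad1 and Gad2, the enzymes that make GABA, were lower in Tg2576 mice under vehicle, and Adarb2 fell with DHA in WT mice. Of all tested genes 3.09% and 1.38% passed in these comparisons. The Gad2 call was kept in 4 of 6 other settings with all mice and in 4 of the 15 fits without 1 mouse. Of 6 mossy cell genes 1, Csf2rb2, was higher in Tg2576 mice over both treatments, beside 3.85% of all tested genes past the threshold. None of the oligodendrocyte precursor, ependymal or tested Cajal-Retzius genes passed in any comparison, beside 0.353% to 3.85% of all tested genes. Of 12 vessel genes Ly6c1 was higher in Tg2576 mice under vehicle, and of 10 thalamic genes Prkcd was lower with DHA in Tg2576 mice. The shares of all tested genes past the threshold there were 3.09% and 0.353%.

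The 9 genes were also compared in pairs across the 15 mice. Of their 36 pairs, 0 had a Benjamini-Hochberg adjusted permutation p under 0.05. The largest correlation was that of Nes and Sox11, with Pearson r = 0.583 (permutation p = 0.0219, adjusted p = 0.403) and Spearman rho = 0.646 (p = 0.0107, adjusted p = 0.250), and r was 0.578 without the 2 mice farthest from the median of Nes. After group means were removed it was 0.535. Furthest from 0 after this step were Igfbpl1 and Calb2 (0.678), Sox2 and Dcx (-0.644), and Nes and Mki67 (0.614). Mki67 and Sox11 went from r = -0.371 to 0.577. The values after removal of group means were not tested.

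Among the other 19535 tested genes, the most alike in log2 CPM over the 15 mice differed from gene to gene. These are descriptions, since the best of so many genes is high by choice, and all share the same libraries. Mki67 went with Prox1 (Pearson r = 0.825, Spearman rho = 0.846) and Zfp131 (r = 0.821), and r with Prox1 was 0.772 without the 2 mice farthest from the median of Mki67 and 0.753 after group means were removed. Neurod1 went with Pcdh8 (r = 0.868) and Tex13c2 (r = 0.835). Sox11 went with Arid5a (r = 0.832) and Wnt4 (r = 0.825), which fell to 0.509 and 0.421 once the group means were removed.

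Sox2 had Ddr1 (r = 0.934) and Plekhg3 (r = 0.890) closest to it, Nes had Fscn1 (r = 0.863) and Phf23 (r = 0.842), and Hopx had A630001G21Rik (r = 0.810) and Rsph3a (r = 0.794). Igfbpl1 went with Lbhd2 (r = 0.923) and Prdm12 (r = 0.870), Dcx with Tert (r = 0.837) and 2510017J16Rik (r = 0.828), and Calb2 with Ccnd3 (r = 0.905) and Dqx1 (r = 0.904). None of the 18 closest genes was another of the 9.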

How the data were processed

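RNA sequencing counts of 15 mouse hippocampi were used, with groups taken from the sample labels. The authors aligned reads with STAR 2.6.1c, per the submitters' processing notes, and counted them per gene of GENCODE M25 (GRCm38) with featureCounts 1.6.0, without a strand setting and leaving out reads that map to several places or several genes. The deposited values are raw counts of 55401 genes. The paper names a stranded TruSeq kit and the labels a SMARTER kit, so the strandedness is unsure. Gene symbols came from GENCODE M21 and were found for 55141 genes.

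In R 4.3.3, edgeR 4.0.16 kept 19536 genes (filterByExpr, minimum count 10) and fitted 4 group means by the robust quasi-likelihood method with TMM scaling. There were 7 comparisons, namely 2 of DHA, 2 of genotype, their averages and the interaction. A gene was called at an unadjusted p under 0.01, and p-values were adjusted over all tested genes (Benjamini-Hochberg). Each standard error was the fitted log2 value over the root of its F. Exact permutation tests compared log2 CPM (prior count 2) of single genes. Total counts ran from 17372864 to 46596489 per mouse. In 21 pairs of mice of the same group, chi-square per degree of freedom was 13.9 to 48.2, so no pair differed by less than the sampling noise.

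The 9 genes, the 17 marker lists and the tests were chosen with earlier results of these data known. Named genes are the 9, up to 3 other genes per list past the threshold in a comparison by lowest p, the 2 of highest level per length, and the 2 tested genes most correlated with each of the 9. Tfap2c, Eomes, Cdk1, Top2a, Rfx3, Ptch1 and Bdnf were named outside this rule, after their values were seen. C1ql2 and Calb1 were also named after their values were seen. Alternatives were RLE factors, DESeq2 1.42.0, limma-voom (limma 3.58.1), no filter, a replicate block, only the 2 groups compared, and each mouse left out. For the lists they were added after the data were seen. On simulated data with 199 of 19148 genes changed by 1 on the log2 scale for DHA in WT mice, 76.4% of the changed genes and 1.07% of the others were called. For DHA in Tg2576 mice these shares were 72.2% and 0.855%. Smaller changes were not simulated. Promoters were read from RefSeq (32851 entries, GRCm38.p6, 7 of the 9 genes). Figures were drawn with Python 3.11.15 and matplotlib 3.10.9. Single-gene results of a few list genes are not reported here, and those genes stay in the counts.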

Additional observations from a re-analysis of the deposited data

Results flagged for a closer look

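In groups of 4 mice, 3 of 27 sets of values held a mouse far from the other 3, by a test that flags about 1 in 20 by chance. Mki67 was at 1.70 CPM in Tg2576 vehicle replicate 1, Igfbpl1 at 4.43 CPM in WT vehicle replicate 3 and Dcx at 18.2 CPM in WT vehicle replicate 1.

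The interaction of genotype and DHA for Sox11 was -0.61 on the log2 scale and passed the threshold without adjustment (edgeR adjusted p = 0.845), as did 0.829% of all tested genes. The call was lost in 5 of the 15 fits without 1 mouse. For Maml2, a mature granule cell marker, the interaction was 0.74 and also passed without adjustment (adjusted p = 0.845).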

How the results depend on the processing

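With all mice, the number of the 9 genes called was the same in each comparison under RLE factors, DESeq2, limma-voom, no filter, the replicate block and fits of only 2 groups (39 of 39 values). Of the 351 fold changes 8 turned, each from near 0. For DHA in Tg2576 mice, Calb2 became -0.0007954 with RLE factors, -0.001183 with DESeq2, -0.001472 with 2 groups and -0.029 with the block, and Dcx -0.0059 with the block. For the interaction, Neurod1 became -0.013 and Dcx 0.018 with limma-voom, and Dcx 0.0038 without the filter. The same replicate number did not pair mice (correlations of -0.244 to 0.213), and the block changed no call of the 9 genes.

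Without 1 mouse, the number called ranged from 1 to 2 for DHA in WT mice, from 0 to 2 for genotype under vehicle and for its average, and from 0 to 1 for the average DHA effect and the interaction. It stayed at 0 in the other 2 comparisons. A second gene was called for DHA in WT mice without WT DHA replicate 1 (Nes) or 4 (Mki67), and for genotype without WT vehicle replicate 3 (Calb2). Fold changes that turned in some of these fits ranged as follows. For DHA in WT mice, Calb2 ran from -0.11 to 0.34, Dcx from -0.070 to 0.17 and Igfbpl1 from -0.82 to 0.34. For DHA in Tg2576 mice, Calb2 ran from -0.11 to 0.066, Dcx from -0.12 to 0.11, Hopx from -0.26 to 0.15 and Sox11 from -0.083 to 0.075. For the average DHA effect, Calb2 ran from -0.056 to 0.17 and Dcx from -0.034 to 0.10. For the interaction, Calb2 ran from -0.34 to 0.11, Dcx from -0.18 to 0.11, Hopx from -0.018 to 0.40, Igfbpl1 from -1.09 to 0.19 and Neurod1 from -0.091 to 0.10. For genotype, Hopx ran from -0.26 to 0.15 and Igfbpl1 from -1.12 to 0.16 under vehicle, Hopx from -0.030 to 0.38 under DHA, and Hopx from -0.062 to 0.18 and Nes from -0.067 to 0.081 on average. The cause of these shifts beyond the missing mouse was not tested.

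Of the named list genes' fold changes, 24 fell short of the threshold under another setting with all mice and 305 kept their side, and without 1 mouse these counts were 167 and 718, with 0 turned in sign. The number called in a marker list moved by over 1.5 times, or to or from 0, in 45 values with all mice (618 did not) and in 233 without 1 mouse (1552 did not).

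Depth limits Igfbpl1 (6 to 131 reads) and Mki67 (30 to 147 reads) most.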
